A study of Mus musculus with 36 samples.

Results

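The genes described here mark the dividing progenitors of the embryonic spinal cord and the interneurons that those progenitors form beside motor neurons. The set holds 40 genes chosen by symbol, 21 progenitor genes and 19 interneuron factors, out of 21761 genes counted. All 40 were listed in the files. Of these, 29 (16 progenitor genes and 13 interneuron factors) passed the filter on low counts and were tested together with 15204 genes in all.

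In the ventral spinal cord, Sonic hedgehog from the floor plate divides the progenitors into stripes, each marked by a combination of transcription factors such as Pax6, Olig2, Nkx2-2 and Irx3. The Olig2 stripe forms motor neurons, and the stripes on either side of it form the V0 to V3 interneurons, each with its own factors (Evx1 for V0, En1 and Foxd3 for V1, Vsx1 and Gata3 for V2, Sim1 for V3). Notch signalling, read out by Hes1 and Hes5, holds progenitors in their dividing state, and the proneural factors Neurog1 and Neurog2 drive them out of it.

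The 36 libraries were made from mouse embryonic stem cells carrying eGFP, or eGFP with the surface protein CD2, under control of the motor neuron gene HB9 (Mnx1). Cells differentiated to motor neurons were collected by CD2 on a magnetic column, plated and kept in astrocyte-conditioned medium, 6 libraries for each medium and day, numbered by experiment. The media came from astrocytes overexpressing G93A mutant SOD1 (mSOD1), the form of the enzyme found in a familial amyotrophic lateral sclerosis, from astrocytes overexpressing wild-type SOD1 (wtSOD1), and from non-transgenic astrocytes (NTg). RNA was taken after 3 days or 1 day. All 6 groups shared the HB9 reporter cells, the glucose and the trophic factors GDNF, BDNF and CNTF added to every medium. Newborn cortex or spinal cord supplied the astrocytes, and the sources used here do not say which of them conditioned the medium of each library. A time zero control named in the design was not analysed here. The labels name experiments and not separate stem cell lines, so the p-values measure the spread between these experiments.

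Depth was 4386939 to 88930330 reads per library. The smallest, NTg replicate 6 of day 1, and the largest, wtSOD1 replicate 4 of day 1, stood apart from their groups, and leaving out both kept every count of member calls given here within 1.5 times. The smallest also held the highest microglial Csf1r (16.5 counts-per-million, CPM) of all 36 libraries. Motor neuron markers were read in every library, Mnx1 at a median of 68.2 CPM and Chat, the acetylcholine-synthesising enzyme, at 149 CPM. Dividing cell markers were read in every library as well, Mki67 at a median of 180 CPM. The astrocyte filament gene Gfap had reads in 24 of 36 libraries, at a median of 0.218 CPM, and the muscle factors Myod1, Myog and Myf5 had a median of 0. CPM here are on library sizes scaled by edgeR's TMM method.

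Compared per length of transcript, per kilobase of exon (RPKM, mean ± SD, n = 6), the progenitor filaments Vim and Nes led the set in every group. In NTg medium Vim stood at 996 ± 40.5 RPKM on day 3 and 609 ± 46.3 RPKM on day 1, and Nes at 152 ± 8.18 and 75.5 ± 6.15 RPKM. Sox2, the transcription factor of neural stem cells, came next with 60.4 ± 8.64 RPKM on day 3 and 27.2 ± 3.71 RPKM on day 1. Among the interneuron factors the highest on day 3 were Gata3 (3.48 ± 0.501 RPKM), Tal1 (3.2 ± 0.55 RPKM) and Gata2 (2.68 ± 0.412 RPKM), which act together in V2b interneurons, and the gap between Gata3 and Tal1 was smaller than their SD. On day 1 Lhx1, a LIM factor of several interneuron classes, was highest among them with 5.94 ± 0.609 RPKM. These are bulk libraries of cells collected as motor neurons, so they do not show which cells held the reads of Lhx1 or another factor. The factors of V0 (Evx1, Evx2), V3 (Sim1) and most dorsal classes (Lhx9, Lmx1b, Tlx3) averaged at most 0.145 RPKM in NTg medium on either day.

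How did the set change between day 1 and day 3? Progenitor genes split into rising and falling members, while interneuron factors fell. Of the 29 members tested, 24, 23 and 23 changed in mSOD1, wtSOD1 and NTg medium, against 56.5%, 61.8% and 61.5% of all genes tested. In mSOD1 medium 7 of 16 progenitor genes rose and 5 fell, against 28.4% and 28% of all genes tested. In wtSOD1 medium 6 rose and 5 fell (31.1% and 30.7% of all genes), and in NTg medium 6 rose and 5 fell (30.8% and 30.8%). The progenitor falls in each medium, and the rises in wtSOD1 and NTg medium, were thus near the shares of all genes. Of 13 interneuron factors, 12 fell and 0 rose in each medium, set against the same shares of genes that fell, 28%, 30.7% and 30.8%. All 13 estimates were negative in each medium, the one that did not pass was Pou4f1, and DESeq2 gave the same counts of 12 lower and 0 higher. These counts depend on the scaling. Another scaling, chosen after the data were seen, held the summed reads of 9 pan-neuronal markers level. In it 7, 5 and 5 of the 13 interneuron factors fell (2.66%, 1.71% and 1.97% of all genes fell) and 0, 3 and 2 rose (75.1%, 87.2% and 85.2% of all genes rose). Only the sum is held level wherever this scaling is used below. Single markers still moved, with 2, 1 and 1 of the 9 higher and 2, 3 and 3 lower. Median log2 differences of the progenitor genes tested were 0.28, 0.06 and 0.20 in mSOD1, wtSOD1 and NTg medium, and those of the interneuron factors were -0.94, -1.05 and -0.91, beside medians of -0.01, -0.01 and 0.00 over all genes. Calls are edgeR quasi-likelihood tests with a Benjamini-Hochberg adjusted p under 0.05 over all genes tested, and differences are log2 day 3 over day 1 with their SE. In bulk libraries fewer cells of a type and less RNA per cell cannot be told apart.

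**Figure D1:**
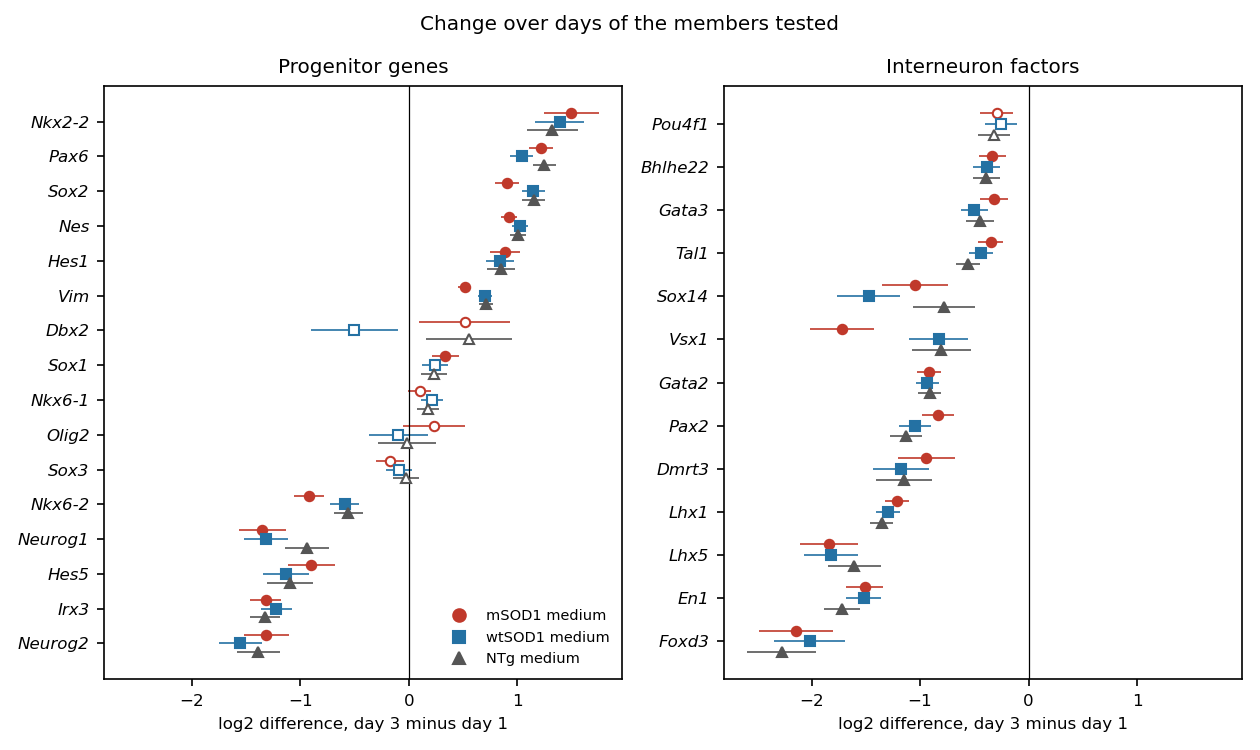
Log2 differences of day 3 minus day 1 (x axis) for the 16 progenitor genes and 13 interneuron factors tested (rows), with SE as bars, in mSOD1, wtSOD1 and NTg medium. Filled symbols passed an adjusted p of 0.05, open ones did not. All 13 interneuron factors lie left of 0 in this scaling, and the progenitor genes lie on both sides, from Nkx2-2 at the top to Neurog2 at the bottom.

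The stem cell genes Sox2, Nes and Vim rose in all 3 media. Sox2, a single-exon gene on chr3:34650405-34652461 (GRCm38, GENCODE), keeps neural cells in the stem cell state. It ranged from 94.5 to 136 CPM on day 3 (median 99.3) and from 48.3 to 66.5 CPM on day 1 (median 55.9) in mSOD1 medium. In wtSOD1 medium Sox2 ranged from 107 to 154 CPM on day 3 (median 119) and 50.3 to 63.9 on day 1 (median 54.3), and in NTg medium from 100.4 to 154 CPM on day 3 (median 122) and 46.1 to 68.4 on day 1 (median 55.5). The days did not overlap in any medium. The log2 differences of Sox2 were 0.90 ± 0.11, 1.15 ± 0.11 and 1.15 ± 0.11 in mSOD1, wtSOD1 and NTg medium (adjusted p = 7.56e-09, 1.42e-11 and 2.02e-11).

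Nes encodes nestin, the intermediate filament of neural progenitors. It averaged 855 ± 55.5, 936 ± 44.9 and 930 ± 50.1 CPM on day 3 in mSOD1, wtSOD1 and NTg medium, against 451 ± 65.2, 461 ± 50.9 and 463 ± 37.7 CPM on day 1 (SD, n = 6). Its log2 differences were 0.92 ± 0.07, 1.02 ± 0.07 and 1.01 ± 0.07 (adjusted p = 7.27e-14, 2.69e-15 and 4.41e-15), the lowest p of the set in each medium. Vim, the vimentin filament shared by progenitors, glia and mesenchyme, averaged 1986 ± 149, 2169 ± 115 and 2208 ± 89.8 CPM on day 3 and 1389 ± 138, 1334 ± 113 and 1350 ± 103 CPM on day 1. Its rises were 0.52 ± 0.06, 0.70 ± 0.06 and 0.71 ± 0.06. Neither Nes nor Vim overlapped between the days.

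The other SoxB1 factors, Sox1 and Sox3, moved little. Sox1 averaged 29.9 ± 4.36 CPM on day 3 and 23.7 ± 2.74 CPM on day 1 in mSOD1 medium, with ranges that overlapped. It rose there by 0.33 ± 0.13 (adjusted p = 0.0229), a call lost without experiment 1 (0.26, adjusted p = 0.145) or experiment 3 (0.30, adjusted p = 0.0934). In wtSOD1 and NTg medium Sox1 stood at 0.24 ± 0.12 and 0.23 ± 0.12 without passing, and passed with experiment as a block (adjusted p = 0.0364 and 0.0435), without experiment 5 (0.0441 and 0.0493) or, in wtSOD1 medium, with the smallest and largest libraries left out (0.0132). Sox3 stood at -0.17 ± 0.13, -0.09 ± 0.12 and -0.03 ± 0.12, with adjusted p of 0.253 to 0.848.

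Of the 11 genes that pattern progenitors along the dorsoventral axis, 7 were tested, and Pax6 and Nkx2-2 rose while Nkx6-2 and Irx3 fell in all 3 media. Pax6 (chr2:105668900-105697364), high in intermediate and dorsal progenitors, ranged from 22.7 to 29.2 CPM on day 3 (median 25.6) against 10 to 12.8 on day 1 (median 11) in mSOD1 medium, 25.1 to 32.8 (median 27) against 11.2 to 16.8 (median 13.3) in wtSOD1 medium and 23.4 to 35.9 (median 27.6) against 10.2 to 14.4 (median 11.9) in NTg medium. The days did not overlap, and the differences of Pax6 were 1.22 ± 0.11, 1.04 ± 0.11 and 1.25 ± 0.11. Nkx2-2, the factor of the most ventral progenitors that form V3 interneurons and later oligodendrocyte precursors, ranged from 4.49 to 8.52 CPM on day 3 (median 4.99) against 1.12 to 2.89 on day 1 (median 1.77) in mSOD1 medium. In wtSOD1 medium its medians were 6.70 on day 3 and 2.22 on day 1, and in NTg medium 6.41 and 2.67, where 1 day 3 library (3.34) fell below the highest of day 1 (3.47). The rises of Nkx2-2 were 1.5 ± 0.25, 1.39 ± 0.22 and 1.32 ± 0.23 (adjusted p = 3.71e-06, 1.34e-06 and 7.07e-06). An antisense transcript covers 11% of its exons in the GRCm38 annotation, and the sources used here do not say whether reads were counted by strand.

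Irx3, which bounds the motor neuron domain on its dorsal side, averaged 8.87 ± 1.51, 9.57 ± 1.04 and 9.07 ± 1.82 CPM on day 3 in mSOD1, wtSOD1 and NTg medium, against 21.9 ± 4.19, 22.4 ± 2.55 and 22.6 ± 5.52 CPM on day 1. It fell by 1.32 ± 0.14, 1.22 ± 0.14 and 1.32 ± 0.14 (adjusted p = 6.61e-10, 1.14e-09 and 1.73e-10), and was lower on day 3 in 18 of 18 same-numbered pairs of libraries. Nkx6-2, a homeodomain repressor of ventral progenitors, fell by 0.92 ± 0.14, 0.59 ± 0.13 and 0.56 ± 0.13. Its relative Nkx6-1, which directs progenitors to motor neurons and V2 cells, stood at 0.10 ± 0.11, 0.21 ± 0.10 and 0.17 ± 0.10 without passing, and passed in wtSOD1 and NTg medium with experiment as a block (adjusted p = 0.0106 and 0.0459). In wtSOD1 medium Nkx6-1 also passed without experiment 4 (0.0193) and with the smallest and largest libraries left out (0.00519). Olig2, the factor of the motor neuron progenitor itself, averaged 6.86 ± 2.56, 6.09 ± 2.07 and 7.62 ± 3.52 CPM on day 3 and 5.90 ± 2.13, 6.48 ± 1.88 and 7.94 ± 1.34 CPM on day 1. It did not pass in any medium (0.23 ± 0.29, -0.10 ± 0.27 and -0.02 ± 0.27), and neither did the low Dbx2 (0.51 ± 0.42, -0.50 ± 0.40 and 0.55 ± 0.40). Pax3, Pax7, Nkx2-9 and Dbx1 were too low to test, with Pax7 at 0 in 34 of 36 libraries.

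The pair of Notch effectors moved in opposite directions in this scaling. Hes1 (chr16:30064384-30067796) ranged from 20.4 to 26.4 CPM on day 3 (median 22.7) against 8.62 to 15.8 on day 1 (median 12.8) in mSOD1 medium, 19.7 to 32.5 (median 24.9) against 10.4 to 17.9 (median 14.3) in wtSOD1 medium and 21.3 to 30.8 (median 24.6) against 10.9 to 17.7 (median 13.6) in NTg medium. The days did not overlap, and Hes1 rose by 0.89 ± 0.14, 0.84 ± 0.13 and 0.85 ± 0.13 (adjusted p = 8.69e-07, 6.11e-07 and 8.91e-07). Hes5 ranged from 1.36 to 2.78 CPM on day 3 (median 1.60) against 1.90 to 4.72 on day 1 (median 3.29) in mSOD1 medium, 0.993 to 2.35 (median 1.61) against 2.73 to 4.38 (median 3.52) in wtSOD1 medium and 1.35 to 2.32 (median 1.54) against 2.83 to 4.31 (median 3.75) in NTg medium. Days overlapped for Hes5 in mSOD1 medium and in neither of the others. Hes5 fell by 0.90 ± 0.22, 1.13 ± 0.21 and 1.10 ± 0.21 (adjusted p = 0.000521, 1.1e-05 and 1.81e-05), and a transcript on the other strand covers 34% of its exons in the annotation. With the pan-neuronal markers held level Hes5 stood at -0.39, -0.34 and -0.38 and did not pass (adjusted p = 0.0949, 0.125 and 0.0851), while Hes1 rose there too (1.41, 1.69 and 1.62).

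The proneural factors Neurog1 and Neurog2, which start neuronal differentiation, fell in all 3 media. Neurog2 averaged 1.72 ± 0.503, 1.72 ± 0.408 and 1.85 ± 0.728 CPM on day 3 against 4.34 ± 0.326, 4.98 ± 1.31 and 4.93 ± 0.852 CPM on day 1, with no overlap between days. Its differences were -1.31 ± 0.21, -1.56 ± 0.20 and -1.39 ± 0.20 (adjusted p = 1.38e-06, 9.82e-09 and 1.18e-07). Neurog1 stood at -1.35 ± 0.22, -1.32 ± 0.20 and -0.94 ± 0.20 (adjusted p = 2.11e-06, 4.48e-07 and 0.000117), also with no overlap, and both genes were lower on day 3 in 18 of 18 pairs. With the pan-neuronal markers held level Neurog1 did not pass in NTg medium (-0.19, adjusted p = 0.44). Neurog3, known for its role in the pancreas, had at most 0.471 CPM and did not reach the filter.

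**Figure D2:**
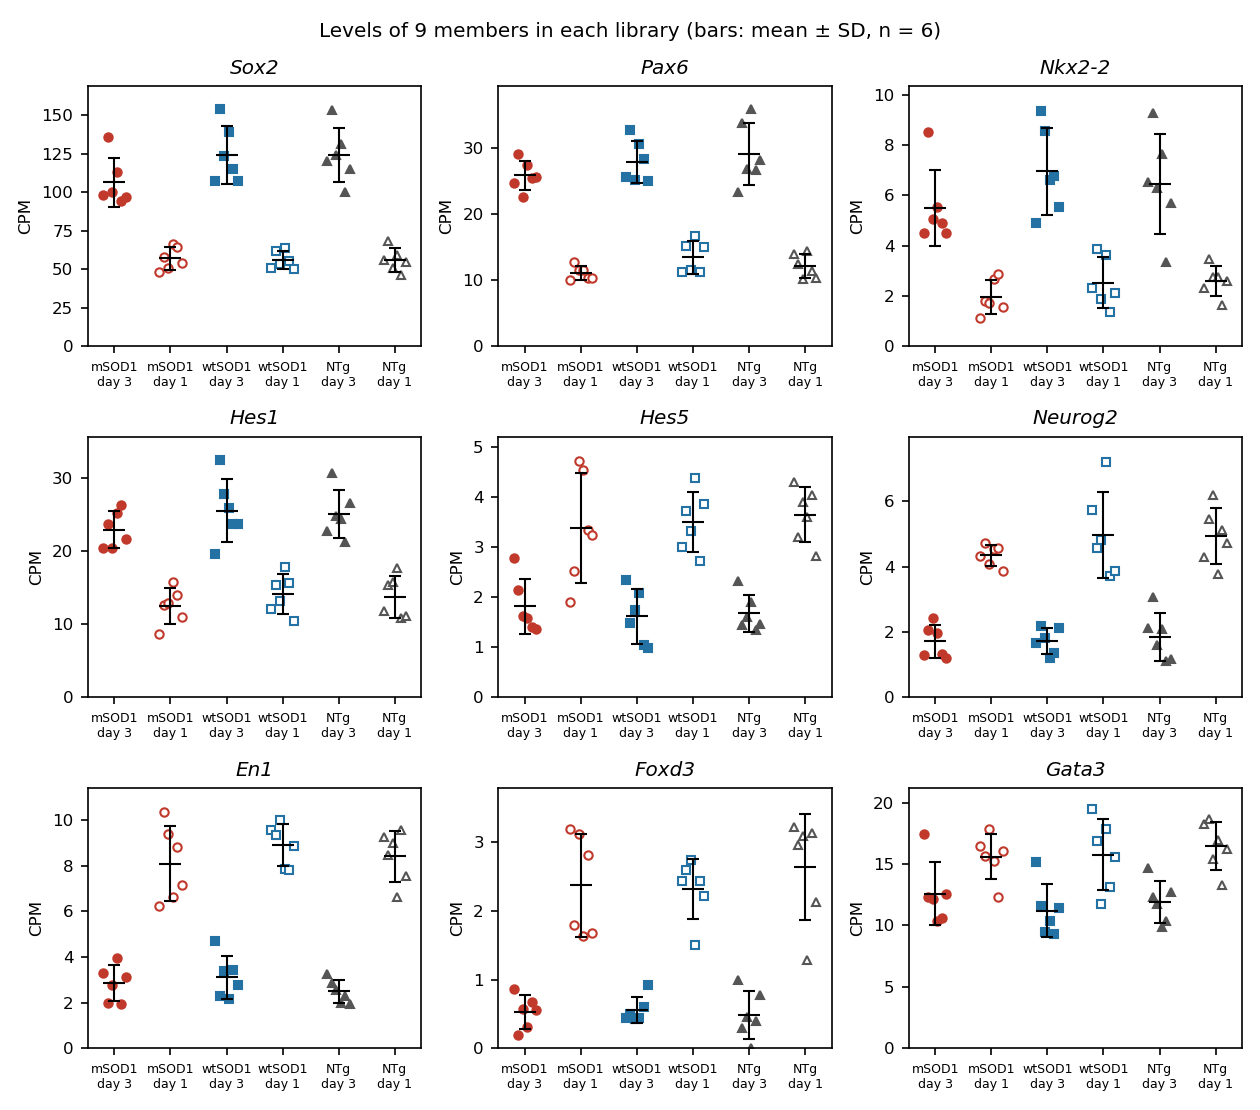
CPM of 9 members (y axes, from 0) in each of 36 libraries by medium and day (x axes), filled for day 3 and open for day 1, with the mean ± SD of 6 libraries. Sox2, Pax6 and Hes1 do not overlap between days in any medium, En1, Foxd3 and Neurog2 are lower on day 3, and the days of Gata3 overlap.

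Sequence before the start of transcription was searched for cores bound by factors of these pathways, and 4 promoters that hold such a core near the start are shown, since their genes are among those followed above and below. The core of RBPJ, through which Notch acts, was GTGGGAA (on the other strand TTCCCAC). That of the GLI factors of Sonic hedgehog was GGTGGTC (on the other strand GACCACC), and that of SOX factors was ACAATG (on the other strand CATTGT). All were searched on both strands in the 250 bases upstream of each RefSeq gene (GRCm38.p6), and no matches overlapped in the stretches shown. The stretches below are 120 bases ending just before the start, printed 5′ to 3′ on the gene's strand with cores in capitals. The stretch of Hes5 is on chr4:154960803-154960922 (plus strand), of Neurog1 on chr13:56252181-56252300 (minus), of Olig2 on chr16:91225430-91225549 (plus) and of Tal1 on chr4:115056306-115056425 (plus).
Hes5: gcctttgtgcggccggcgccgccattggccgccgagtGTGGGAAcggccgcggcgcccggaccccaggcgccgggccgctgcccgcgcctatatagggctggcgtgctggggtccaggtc
Neurog1: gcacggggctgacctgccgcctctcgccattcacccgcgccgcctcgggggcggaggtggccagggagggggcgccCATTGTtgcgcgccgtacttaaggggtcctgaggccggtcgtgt
Olig2: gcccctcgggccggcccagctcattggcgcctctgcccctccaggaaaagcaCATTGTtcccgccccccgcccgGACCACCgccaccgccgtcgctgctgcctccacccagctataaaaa
Tal1: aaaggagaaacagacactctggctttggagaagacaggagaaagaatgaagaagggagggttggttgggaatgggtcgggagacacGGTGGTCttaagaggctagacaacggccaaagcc
Promoters of Hes1, Lhx5, Sox3, Pax3 and Bhlhe22 were missing from the RefSeq set used and were not searched. Of the 35 members searched, 1 (Hes5) held the RBPJ core, against 6.18% of all genes. The GLI core was in 2 (Olig2 and Tal1), against 2.71% of all genes, and the SOX core in 5 (Hes5, Neurog1, Olig2, Dbx1 and Dbx2), which is 14.3% of members against 12.2% of all genes. Both SOX cores of Hes5 and a second RBPJ core, on the other strand, lie upstream of the stretch shown. A match describes these letters and not a bound site.

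Interneuron factors are described by class. Among V0 and V1 factors, En1 (chr1:120602418-120607992) and Foxd3 (chr4:99656299-99658622), which mark V1 inhibitory interneurons, had differences of over 1.5 log2 units in every medium. En1 ranged from 1.93 to 3.94 CPM on day 3 (median 2.95) against 6.21 to 10.3 on day 1 (median 7.99) in mSOD1 medium, 2.15 to 4.70 (median 3.07) against 7.79 to 10 (median 9.11) in wtSOD1 medium and 1.93 to 3.27 (median 2.44) against 6.64 to 9.55 (median 8.72) in NTg medium. Every day 3 library lay below every day 1 library, and En1 fell by 1.51 ± 0.17, 1.52 ± 0.16 and 1.72 ± 0.17 (adjusted p = 1.3e-09, 2.18e-10 and 1.96e-11). Foxd3 averaged 0.528 ± 0.247, 0.557 ± 0.189 and 0.486 ± 0.353 CPM on day 3 and 2.37 ± 0.748, 2.32 ± 0.439 and 2.63 ± 0.769 CPM on day 1, again without overlap, with 1 NTg library at 0 on day 3. Foxd3 fell by 2.14 ± 0.34, 2.02 ± 0.33 and 2.27 ± 0.32. Pax2, an inhibitory interneuron factor of V0, V1 and dorsal classes, fell by 0.84 ± 0.15, 1.05 ± 0.14 and 1.13 ± 0.15 (adjusted p = 6.81e-06, 6.04e-08 and 1.67e-08). Evx1 had at most 0.291 CPM and Evx2 had reads in 2 libraries, so the V0 factors did not reach the filter.

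All 5 V2 factors fell in all 3 media in this scaling. With the pan-neuronal markers held level, none of them fell in all 3. Gata3 and Tal1 had positive estimates there, Gata2 passed in mSOD1 medium (-0.42) and not in wtSOD1 or NTg medium (-0.12 and -0.16, adjusted p = 0.44 and 0.304), and Vsx1 likewise stood at -1.22, -0.06 and -0.06 (0.000715, 0.86 and 0.857). Sox14 passed there in wtSOD1 medium (-0.72) and not in mSOD1 or NTg medium (-0.56 and -0.07, adjusted p = 0.0873 and 0.83). Gata2 averaged 10.1 ± 1.46, 10.1 ± 0.891 and 9.87 ± 1.52 CPM on day 3 against 19.1 ± 1.92, 19.2 ± 3.17 and 18.5 ± 2.65 CPM on day 1, a fall of 0.92 ± 0.11, 0.93 ± 0.11 and 0.91 ± 0.11 without overlap between days. Gata3 averaged 12.6 ± 2.55, 11.2 ± 2.16 and 11.9 ± 1.72 CPM on day 3 against 15.6 ± 1.84, 15.8 ± 2.91 and 16.5 ± 1.97 CPM on day 1, with overlap in every medium. Its falls were 0.31 ± 0.13, 0.50 ± 0.13 and 0.45 ± 0.13 (adjusted p = 0.0371, 0.000805 and 0.00264). The call of Gata3 in mSOD1 medium was lost without experiment 2, 3, 4 or 6 (adjusted p = 0.0896 to 0.123). Tal1, which works with the GATA factors in V2b cells and in blood, fell by 0.35 ± 0.11, 0.43 ± 0.11 and 0.56 ± 0.11, in mSOD1 medium not without experiment 2 or 5 (adjusted p = 0.0964 and 0.0767). The blood factor Gata1 had reads in 15 of 36 libraries, at most 0.318 CPM. Of the other endothelial and blood markers, Hbb-bh1 had reads in 3 libraries and Emcn in 30. Kdr, Tek, Pecam1 and Cdh5 had reads in all 36, at medians of 8.18, 1.66, 0.713 and 0.319 CPM. The part of such cells in the levels of Tal1 and the GATA factors was not tested. Vsx1, of V2 precursors, stood at -1.72 ± 0.29, -0.83 ± 0.27 and -0.80 ± 0.27 (in NTg medium not passing without experiment 1 or 2, adjusted p = 0.0738 and 0.0692). Sox14, of V2a interneurons, stood at -1.05 ± 0.30, -1.47 ± 0.29 and -0.78 ± 0.29 (in mSOD1 medium not passing without experiment 6, -0.74, adjusted p = 0.069).

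Of the LIM and broader factors, Lhx1 and Lhx5 fell in each medium by over 1.2 log2 units. Lhx1 (chr11:84518284-84525535) ranged from 6.46 to 10.5 CPM on day 3 (median 9.37) against 17.1 to 23.3 on day 1 (median 21.9) in mSOD1 medium, 8.15 to 10.6 (median 8.82) against 15.5 to 26.5 (median 22.6) in wtSOD1 medium and 7.49 to 10.7 (median 9.45) against 20.0 to 26.2 (median 24.2) in NTg medium. The days were apart in each, and its falls of 1.21 ± 0.11, 1.29 ± 0.11 and 1.35 ± 0.11 had the lowest p of the interneuron factors (adjusted p = 6.31e-12, 3.08e-13 and 9.65e-14). Lhx5 fell by 1.84 ± 0.27, 1.82 ± 0.25 and 1.60 ± 0.24. Dmrt3, of the dI6 class that shapes locomotor rhythm, fell by 0.94 ± 0.26, 1.17 ± 0.26 and 1.15 ± 0.26. Bhlhe22, a basic helix-loop-helix factor of dorsal horn interneurons, fell by 0.33 ± 0.12, 0.39 ± 0.12 and 0.39 ± 0.12, a call lost in mSOD1 medium without experiment 4, 5 or 6 (adjusted p = 0.0744, 0.0873 and 0.0549) and in wtSOD1 medium without experiment 2 (0.0673). With the pan-neuronal markers held level the estimates of Bhlhe22 were positive, 0.17, 0.39 and 0.35, and it passed as higher in wtSOD1 and NTg medium (adjusted p = 0.0128 and 0.0286). Pou4f1 (Brn3a), of dorsal interneurons and sensory neurons, averaged 3.70 ± 0.691, 3.74 ± 0.811 and 4.15 ± 0.682 CPM on day 3 against 4.48 ± 0.603, 4.60 ± 0.782 and 5.12 ± 0.647 CPM on day 1. Its differences were -0.29 ± 0.15, -0.25 ± 0.15 and -0.32 ± 0.15, and it passed in NTg medium with experiment as a block (adjusted p = 0.0406) or without experiment 6 (0.0337), and in wtSOD1 and NTg medium with the smallest and largest libraries left out (0.0443 and 0.0371). Lhx9, Lmx1b, Tlx3 and Sim1 did not reach the filter, with maxima of 0.416, 1.2, 0.773 and 0.976 CPM. Lmx1b, a factor of dorsal excitatory interneurons, averaged 0.618 ± 0.319 CPM on day 3 and 0.178 ± 0.116 CPM on day 1 in NTg medium and rose there in a fit with no filter (1.57, adjusted p = 0.0114).

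The fit with no filter also called 4 other low members, each on few reads. Tlx3, a selector of dorsal excitatory neurons, was lower on day 3 in wtSOD1 medium (-1.49, adjusted p = 0.0215), with 13 reads over 6 libraries on day 3 and 86 on day 1, 64 of these in the largest library. Evx1 was lower in wtSOD1 medium (adjusted p = 0.00698), with 0 reads on day 3 and 13 on day 1. The dorsal progenitor gene Pax3 was higher in wtSOD1 medium (13 reads on day 3 and 1 on day 1, adjusted p = 0.00336) and in NTg medium (18 and 2 reads, 0.0258). Neurog3 was higher in mSOD1 medium (5 reads on day 3 and 0 on day 1, adjusted p = 0.0474) and in wtSOD1 medium (7 and 1 reads, 0.0449).

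Groups of 6 did not overlap between the days for 10, 10 and 8 of 16 progenitor genes in mSOD1, wtSOD1 and NTg medium, against 32%, 38.3% and 38.4% of all genes. For the interneuron factors the counts were 6, 7 and 8 of 13. The sum over the 19 interneuron factors was 76.8 ± 10.5, 72.5 ± 6.17 and 71.8 ± 8.98 CPM on day 3 and 129 ± 7.23, 130 ± 14.4 and 132 ± 11.3 CPM on day 1. The sum over the 21 progenitor genes, most of it Vim and Nes, was 3121 ± 222, 3425 ± 179 and 3459 ± 149 CPM on day 3 against 2067 ± 212, 2036 ± 165 and 2052 ± 150 CPM on day 1.

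Markers of other cells moved over the same days, and their part in these results was not tested. Of 9 pan-neuronal markers (Tubb3, Stmn2 and others), 8, 9 and 9 fell in mSOD1, wtSOD1 and NTg medium, with medians of -0.53, -0.78 and -0.74. Their summed level ran over 5104 to 7417, 3828 to 6426 and 4211 to 6471 CPM on day 3, against 8246 to 9699, 8284 to 9317 and 8320 to 9608 CPM on day 1. All 9 motor neuron markers fell in each medium, with medians of -1.20, -1.47 and -1.45. Dividing cell markers rose, 8, 10 and 10 of 10. Their sums ran over 899 to 1306, 1078 to 1621 and 1097 to 1543 CPM on day 3 and 539 to 769, 625 to 756 and 620 to 794 CPM on day 1. Of 8 astrocyte markers 6 rose and 1 fell in each medium, and of 7 mesenchyme markers, cells that also make vimentin, 6, 6 and 7 rose. Beside these counts, 28.4%, 31.1% and 30.8% of all genes tested rose and 28%, 30.7% and 30.8% fell.

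Set against the neurons in the same library, the interneuron sum was 1.24 ± 0.168%, 1.44 ± 0.219% and 1.36 ± 0.206% of the pan-neuronal sum on day 3 and 1.47 ± 0.119%, 1.49 ± 0.213% and 1.49 ± 0.147% on day 1. As a percentage of the motor neuron marker sum its mean was higher on day 3, 8.06 ± 1.21%, 9.74 ± 1.72% and 8.72 ± 1.48%, against 7.83 ± 0.944%, 8.22 ± 1.10% and 8.09 ± 0.673% on day 1. The ranges of the days overlapped in every medium for both percentages. The log2 differences of 9, 7 and 6 of the 13 factors lay below that of every pan-neuronal marker, with En1, Foxd3, Lhx1 and Lhx5 among them, and those of 0, 4 and 3 lay above that of every one. With the pan-neuronal markers held level the median of all genes moved to 0.50, 0.80 and 0.75. En1, Foxd3, Lhx1 and Lhx5 fell in all 3 media there, Dmrt3 passed in none, and Pax2 did not pass in wtSOD1 medium (-0.25, adjusted p = 0.0991). The estimates of Gata3, Tal1, Bhlhe22, Sox3 and Pou4f1 were positive in all 3 media in that scaling, and those of Nkx6-2 in wtSOD1 and NTg medium. Olig2 (0.75, 0.74 and 0.73), Sox1 and Nkx6-1 rose in all 3 media there. In wtSOD1 and NTg medium Olig2 rose by less than the median of all genes. Of the 16 progenitor genes 4, 3 and 2 fell, Irx3 and Neurog2 in all 3 media, against 2.66%, 1.71% and 1.97% of all genes. Another 10, 10 and 11 rose, below the shares of all genes that rose, 75.1%, 87.2% and 85.2%.

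**Figure D3:**
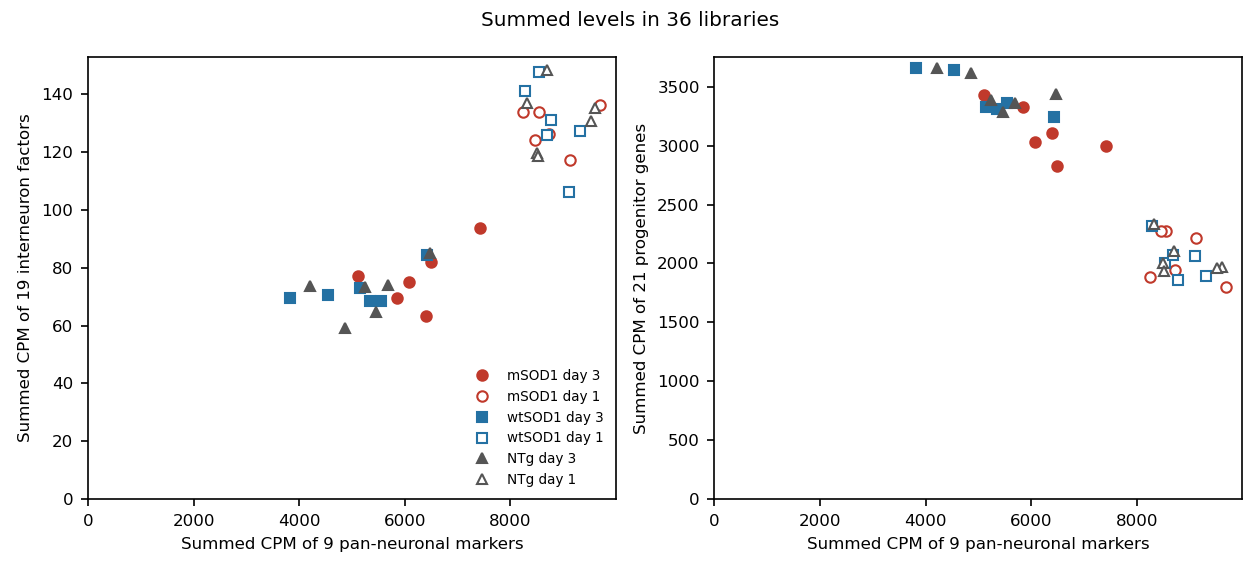
Summed CPM of the 19 interneuron factors (left) and of the 21 progenitor genes (right) on the y axes against the summed CPM of 9 pan-neuronal markers on the x axes, 1 point per library, filled for day 3 and open for day 1. Day 3 libraries lie at lower pan-neuronal and interneuron sums and at higher progenitor sums than day 1 libraries.

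Genes of the pathways around the members gave the following counts in mSOD1, wtSOD1 and NTg medium, to be read against 28.4%, 31.1% and 30.8% of all genes that rose and 28%, 30.7% and 30.8% that fell. Of 12 Sonic hedgehog pathway genes, 10, 11 and 10 rose on day 3 and 1, 0 and 1 fell, and those with the lowest p in NTg medium were the co-receptor Boc (1.58, 1.63 and 1.77), the ligand Shh (1.46, 1.58 and 1.64), the co-receptor Gas1 (2.51, 2.91 and 2.91) and the repressor Gli3 (1.72, 1.69 and 1.73).

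Of 18 Notch pathway genes 8, 7 and 7 rose and 6, 6 and 5 fell. The receptors Notch1 (0.84, 0.93 and 0.88), Notch2 (0.98, 1.22 and 1.07) and Notch3 (0.88, 1.02 and 0.96) rose with the effector Hey2 (1.2, 1.89 and 1.46), the 4 of lowest p in NTg medium. The count of Notch genes that fell was near the share of all genes that fell. Among them, named after its values were seen, was the ligand Jag2 (-0.75, -0.82 and -0.90). Of 10 factors of neuron formation 9, 8 and 8 fell and 1 rose. Sox11 (-0.75, -1.0 and -0.94), Myt1 (-1.0, -1.14 and -1.16) and Dcx (-0.66, -0.93 and -0.96), genes of newly formed neurons, fell, and the antiproliferative Btg2 rose (0.67, 0.82 and 0.99).

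Of 11 genes of radial glia and glia formation 7, 8 and 8 rose and 3 fell in each medium. Nfib (1.08, 1.19 and 1.25), a gliogenic factor, Slc1a3 (1.92, 2.18 and 2.04), the glutamate transporter GLAST, and Fabp7 (1.18, 1.25 and 1.26), a radial glial lipid carrier, rose, and Id2 (-1.24, -1.39 and -1.24) fell. Id2 encodes an inhibitor of basic helix-loop-helix factors. Of 8 transmitter genes of interneurons 4 fell and 1 rose in each medium. The glycine transporter Slc6a5 (-0.99, -0.83 and -1.33), the GABA-synthesising enzyme Gad1 (-0.45, -0.68 and -0.86) and the vesicular transporter Slc32a1 (-0.35, -0.46 and -0.65) fell, and the glutamate transporter Slc17a8 rose (1.95, 2.18 and 1.62).

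The counts of falls in these lists changed with the scaling. With the pan-neuronal markers held level, 75.1%, 87.2% and 85.2% of all genes rose and 2.66%, 1.71% and 1.97% fell. There 11, 16 and 16 Notch pathway genes rose and 1, 0 and 0 fell, 11, 12 and 11 Sonic hedgehog genes rose, and 8 genes of radial glia rose in each medium. Rises of Notch, radial glia, neuron formation and transmitter genes were near or below the shares of all genes. Of the factors of neuron formation 5, 3 and 3 fell there and 1, 3 and 3 rose, with Sox11 and Myt1 among those that fell in all 3 media. Of the transmitter genes 1, 0 and 1 fell and 4, 5 and 4 rose. Slc6a5 fell there in mSOD1 and NTg medium (-0.50 and -0.61), Gad1 did not pass (0.06, 0.11 and -0.15), and Slc32a1 had positive estimates (0.16, 0.33 and 0.08).

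Did the astrocyte genotype bear on these genes? In the fit without a block no member passed in any of 6 comparisons between media. For mSOD1 against NTg medium 0 of 29 members passed on day 3, where 2.94% of all genes did, and 0 on day 1, where 0.421% did, with 5 and 1 members at an unadjusted p below 0.05 (19.4% and 6.95% of all genes). For mSOD1 against wtSOD1 medium 0 passed on day 3 (3.37% of all genes) and 0 on day 1 (1.01%), with 3 and 2 below 0.05 unadjusted (18.6% and 11.1% of all genes). For wtSOD1 against NTg medium 0 passed on day 3 (0.0987% of all genes) and 0 on day 1 (0.0263%), with 0 and 0 below 0.05 unadjusted (2.58% and 5.71% of all genes). DESeq2 called 1 member in these comparisons, Sox3 for mSOD1 against NTg medium on day 3 (adjusted p = 0.0354, where it called 4.56% of all genes). No interaction of day with medium passed either, for mSOD1 against NTg (0.23% of all genes), wtSOD1 against NTg (0.0197%) or mSOD1 against wtSOD1 (0.592%), with 2, 0 and 2 members below 0.05 unadjusted (14.2%, 2.84% and 15.1% of all genes) and 0 by DESeq2. The lowest interaction p belonged to Vsx1 for mSOD1 against NTg (-0.91 ± 0.40, adjusted p = 0.292).

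On day 3, 15 of 16 progenitor genes had negative estimates in mSOD1 against NTg medium, with a median of -0.16, and 6 of 13 interneuron factors did, with a median of 0.01, beside -0.01 over all genes. Of all genes tested 51.8% had negative estimates there. The members were read in the same libraries, so their signs are not independent of each other. Sox3 had 28.6, 26.3, 28.1, 24.5, 21.7 and 25.7 CPM in mSOD1 medium (experiments 1 to 6), 31.9, 33.6, 35.4, 35.6, 32.3 and 28.7 CPM in wtSOD1 medium, and 37.5, 34.7, 36.7, 37.4, 26.7 and 30.3 CPM in NTg medium. The mSOD1 library was the lowest of the 3 in each experiment, and all 6 lay below all 6 of wtSOD1 medium, as was so for 1.97% of all genes in either direction. The mSOD1 and NTg libraries overlapped. Sox3, a stem cell factor of the neural tube, stood at -0.40 ± 0.12 against NTg (adjusted p = 0.0679, lower in 6 of 6 pairs) and at -0.35 ± 0.12 against wtSOD1 medium (0.11).

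With experiment as a block, 4 members passed for mSOD1 against NTg medium on day 3 (9.93% of all genes) and 3 for mSOD1 against wtSOD1 medium (9.33%). Against NTg medium Sox3 (-0.39 ± 0.10, adjusted p = 0.00846), Sox2 (-0.23 ± 0.06, 0.0124) and Vim (-0.16 ± 0.05, 0.0224) were lower and Tal1 (0.30 ± 0.10, 0.0459) was higher. Against wtSOD1 medium Sox2 (-0.22 ± 0.06, 0.0132), Sox3 (-0.34 ± 0.10, 0.0196) and Nes (-0.13 ± 0.04, 0.0476) were lower. A block within each day, chosen after seeing the data, gave 5 and 4 members (18.1% and 15.6% of all genes). It added Nes against NTg medium and Vim against wtSOD1 medium. As shares of the members tested, the counts of both blocks were near those of all genes. Each of these genes had the same sign in 6 of 6 experiments in the comparisons where it was called. That sign count is no separate support, since the same values chose the genes.

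Sox2 had 98.2, 136, 100.3, 113, 94.5 and 97 CPM in mSOD1 medium on day 3, 107, 154, 123, 139, 115 and 107 CPM in wtSOD1 medium, and 120.3, 154, 124, 132, 100.4 and 115 CPM in NTg medium. Experiment 2 was highest in each medium, and the media overlapped. Tal1 had 22.8, 16.6, 19, 15.9, 14.5 and 15.6 CPM in mSOD1 medium, 18, 14.5, 15, 16, 14.2 and 16.1 CPM in wtSOD1 medium and 18.5, 14, 14.6, 12.1, 12.1 and 12.9 CPM in NTg medium. Experiment 1 was highest for Tal1 in each medium.

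**Figure D4:**
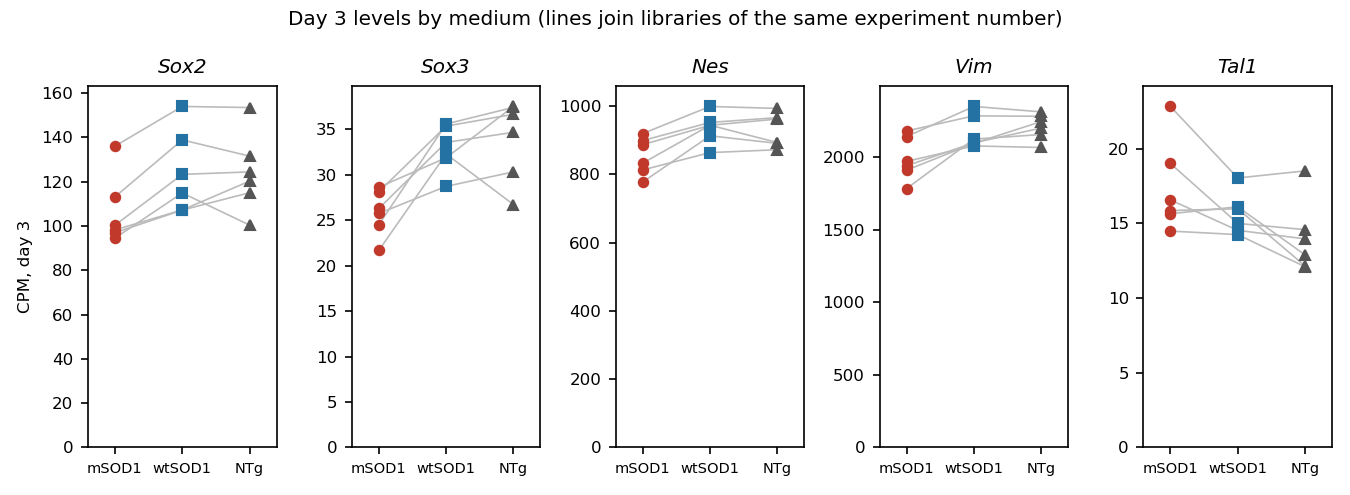
Day 3 CPM (y axes, from 0) of Sox2, Sox3, Nes, Vim and Tal1 in mSOD1, wtSOD1 and NTg medium (x axes), 1 point per library, with lines joining libraries of the same experiment. The mSOD1 points of Sox3 lie between 21.7 and 28.6 CPM, below all wtSOD1 points, and the other genes overlap between media.

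Other lists differed in the same comparison, and their part in the progenitor estimates was not tested. For mSOD1 against NTg medium on day 3, 2 of 9 pan-neuronal markers rose (Stmn2 by 0.32 ± 0.08 and Elavl4 by 0.28 ± 0.07), 2 of 10 dividing cell markers fell (Mcm2 by 0.37 ± 0.07 and Mcm5 by 0.37 ± 0.09), and 2 of 7 mesenchyme markers fell (Col1a2 and Dcn). In that comparison 2.94% of all genes tested passed in either direction. The summed pan-neuronal level ran over 5104 to 7417 CPM in mSOD1, 3828 to 6426 CPM in wtSOD1 and 4211 to 6471 CPM in NTg medium, and the summed dividing cell level over 899 to 1306, 1078 to 1621 and 1097 to 1543 CPM.

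Libraries of the same experiment varied together in some members on day 3. Experiment 2 was the highest of 6 in all 3 media for 6 of 16 progenitor genes, Sox1, Sox2, Nes, Olig2, Nkx2-2 and Nkx6-1. Experiment 1 was the highest in all 3 for Hes5 and for 3 of 13 interneuron factors, Gata3, Tal1 and Lhx5. On day 1, 3 progenitor genes (Vim, Irx3 and Hes1) and 0 interneuron factors had the same highest experiment in all 3 media. Olig2 had 10.8, 8.61 and 13 CPM in experiment 2 and 3.49, 3.21 and 3.66 CPM in experiment 5 in mSOD1, wtSOD1 and NTg medium on day 3. The floor plate factor Foxa2 was also highest in experiment 2 in each medium (8.24, 9.65 and 12 CPM), and so was Olig1, the neighbour and relative of Olig2 (10.1, 6.42 and 11.3 CPM). Coefficients of variation, as the median over the 6 groups, ran from 7.32% for Nes and 7.55% for Vim to 35% for Olig2 and 48.8% for Dbx2 among members tested. The summed dividing cell markers were highest in experiment 2 as well (1306, 1621 and 1543 CPM), where the pan-neuronal sums were lowest (5104, 3828 and 4211 CPM), and experiment 1 had the highest pan-neuronal sums (7417, 6426 and 6471 CPM). The part of these markers in the spread of the members was not tested.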

How the data were processed

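The authors deposited 1 table of raw read counts per gene for each of 36 libraries. Per the submitters' processing notes, reads were handled with TopHat 1.3.3 and DESeq on mm9; the sources used here do not name the counting program, annotation or strand setting.

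The 40 members and the pathway and marker lists were chosen with earlier results of these data known. All members are described, and up to 4 genes of each other list with the lowest adjusted p. Counts were fitted in edgeR 4.0.16 (R 4.3.3) by its robust quasi-likelihood test with TMM scaling, 6 group means in 1 fit of 36 libraries, and filterByExpr by group, which kept 15204 genes. P-values were Benjamini-Hochberg adjusted over these, with a threshold of 0.05. DESeq2 1.42.0, a replicate block, RLE scaling, no filter, each experiment left out, and both libraries that stood apart left out were alternatives. Scaling to the summed reads of the pan-neuronal markers and a block within each day were chosen after seeing the data. The calculation was tested on simulated counts. Levels are CPM without a pseudocount. RPKM used GENCODE M21 exon lengths (GRCm38), not the build of the counts.

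Replicate numbers are the experiment numbers in the labels and were taken as pairing. Deviations of same-numbered libraries correlated at a mean r of 0.133 on day 1 and 0.24 on day 3 (11 and 16 of 18 pairs over 0.1), and at 0.0373 across days. Depth of 4386939 to 88930330 reads limits low genes: 3 reads are 0.707 CPM in the smallest library. Single values of some pathway and marker genes are not reported here.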

Additional observations from a re-analysis of the deposited data

Results flagged for a closer look

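In 11 of 186 sets of 6 libraries examined (5.91%), the highest or lowest library stood far from the other 5, by Dixon's 95% criterion on CPM. Chance flags about 1 in 20 such sets. No member's change over days differed between media by a test of that difference.

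Among progenitor genes, Sox1 had 32.2 CPM in wtSOD1 replicate 4 of day 1, the deepest library, against 23.9 to 26.7 CPM in the others. Nkx2-2 had 8.52 CPM in mSOD1 replicate 2 of day 3, against 4.49 to 5.54 CPM, and Irx3 had 12.5 CPM in NTg replicate 1 of day 3, against 7.4 to 9.05 CPM. Neurog1 was low in NTg replicate 6 of day 3, at 1.16 CPM against 2.29 to 2.44 CPM.

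Among interneuron factors, Gata3 had 17.4 CPM in mSOD1 replicate 1 of day 3, against 10.4 to 12.6 CPM, and Bhlhe22 had 7.24 CPM in wtSOD1 replicate 1 of day 3, against 5.38 to 6.02 CPM. The summed interneuron factors stood at 84.6 CPM in the same wtSOD1 library, against 68.4 to 73.1 CPM. Vsx1 had 1.70 CPM in NTg replicate 6 of day 3, against 0.764 to 1.08 CPM, and Foxd3 had 0.922 CPM in wtSOD1 replicate 6 of day 3, against 0.433 to 0.597 CPM. Sox14 had 2.66 CPM in wtSOD1 replicate 2 of day 1, against 0.779 to 1.46 CPM. Pax2 was low in wtSOD1 replicate 5 of day 1, at 12.3 CPM against 17.7 to 19.6 CPM.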

How the results depend on the processing

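Scaling to pan-neuronal markers (chosen after seeing the data) moved the most counts between days. In mSOD1 medium 7 interneuron factors were lower. In wtSOD1 medium 10 progenitor genes were higher and 3 lower, and 5 interneuron factors were lower and 3 higher. In NTg medium these were 11, 2, 5 and 2. Estimates that changed sign, among those called in either scaling, were, in mSOD1 medium, Gata3 (0.19), Tal1 (0.15) and Bhlhe22 (0.17), in wtSOD1 medium, Sox3 (0.72), Olig2 (0.74), Nkx6-2 (0.21), Gata3 (0.30), Tal1 (0.36), Pou4f1 (0.56) and Bhlhe22 (0.39), and in NTg medium, Sox3 (0.74), Olig2 (0.73), Nkx6-2 (0.19), Gata3 (0.28), Tal1 (0.16), Pou4f1 (0.44) and Bhlhe22 (0.35). The scaling itself shifts the median of all genes by 0.50, 0.80 and 0.75 in mSOD1, wtSOD1 and NTg medium. In it 75.1%, 87.2% and 85.2% of all genes rose and 2.66%, 1.71% and 1.97% fell.

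With the replicate block 4 members passed for mSOD1 against NTg medium and 3 for mSOD1 against wtSOD1 medium on day 3, over 1510 and 1419 genes in all (447 and 513 without it). A block within each day, chosen after seeing the data, gave 5 and 4. DESeq2 gave 1 (Sox3, adjusted p = 0.0354). The replicate block removed no call of a member, and moved no other count of members by over 1.5 times. Without a filter 1 interneuron factor, Lmx1b, was higher on day 3 in NTg medium, Evx1 and Tlx3 were lower in wtSOD1 medium, Pax3 was higher in wtSOD1 and NTg medium and Neurog3 in mSOD1 and wtSOD1 medium, all on few reads. RLE scaling changed no call.

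With each experiment left out, members called between days numbered 21 to 23 in mSOD1 medium (24 with all), 22 to 24 in wtSOD1 and 22 to 24 in NTg medium (23 each with all). Progenitor genes higher were 6 to 7 in each medium and lower 5 to 5. Interneuron factors lower were 9 to 12, 11 to 12 and 11 to 13, and higher 0 to 0. The comparisons between media and the interactions gave 0 to 0.

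Members under about 1 CPM rest on few reads, and the libraries do not separate changes in cell numbers from changes per cell.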
